A study of Ovis aries with 3 samples.

Results

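The HF library was set against the Cont library for every miRNA entry with enough counts to be read. Both came from small RNA sequencing of left ventricular tissue of Coopworth ewes. Members were the entries of both merged count tables whose mean over Cont, HF and HF-R was at least 10 counts. There were 366 such entries of the 636 deposited. Entries with overlapping coordinates, on either strand, and the same counts in Cont, HF and HF-R were taken once, which left 356 members of 621 distinct entries. The Cont library was a pool of total RNA from 4 normal control sheep. The HF library was a pool from 6 sheep in heart failure produced by rapid left ventricular pacing, given as about 220 beats per minute for 13 days in the treatment label and as 225 beats per minute for 14 days in the sample description. The HF-R library, shown beside both, was a pool from 4 sheep left to recover after pacing, for 26 days by the treatment label and for 14 days by the description. No genetic change was named, and no drug was named as the treatment of a group. By the study's methods the sheep were instrumented by thoracotomy under thiopentone and isoflurane and killed with pentobarbital. Sheep of the HF and HF-R groups also had a pacing electrode implanted in the left ventricular wall. Each group was 1 pooled library, so the spread between sheep was not measured, no test between groups was possible and no p-value is given. Heart failure and the pool itself, with its own extraction, preparation and sequencing, cannot be told apart.

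A microRNA is cut from a hairpin precursor as a duplex of a 5p and a 3p strand, of which one is usually kept in the silencing complex. The kept strand pairs with messenger RNAs mainly through its seed, bases 2 to 8 from its 5′ end, and lowers their translation and stability. MiRNAs with the same seed form families with overlapping targets, and neighbouring miRNA genes can share a primary transcript. In ventricular muscle the best known miRNAs are the myomiRs miR-1, miR-133, miR-208 and miR-499, and rapid pacing of the left ventricle is an established large animal model of dilated, low output heart failure. Entries that the study aligned to human, mouse or rat miRNAs (hsa-, mmu-, rno-) are named here without their prefix unless entries of different species had different counts, and known sheep miRNAs carry the prefix oar-. A perfect entry matched its reference over its whole length and a partial entry over 70 to 99% of it.

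The sequences below carry the results. They were copied from the deposited tables, are written 5′ to 3′ in DNA letters, and have the seed in capitals. The first set holds a selection of the family members that were higher in the HF library, ordered by seed: miR-23, then the miR-17 group, then miR-29, then miR-15/16.
oar-miR-23a: aTCACATTgccagggatttcca
oar-miR-23b: aTCACATTgccagggatt
miR-20a-5p: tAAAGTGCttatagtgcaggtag
miR-93-5p: cAAAGTGCtgttcgtgcaggtag
oar-miR-17-5p: cAAAGTGCttacagtgcaggta
miR-106b-5p: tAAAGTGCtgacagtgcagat
oar-miR-29a: tAGCACCAtctgaaatcggtt
oar-miR-29b: tAGCACCAtttgaaatcagtgt
miR-29c-3p: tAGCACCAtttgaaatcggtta
oar-miR-16b: tAGCAGCAcgtaaatattgg
miR-15a-5p: tAGCAGCAcataatggtttgtg
miR-15b-5p: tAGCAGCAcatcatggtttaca
miR-424-5p: cAGCAGCAattcatgttttgaa

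The next set holds 1 entry with the miR-15/16 seed that was lower in HF, hsa-miR-497-5p, and 3 abundant entries outside these families that were higher. The last 8 were lower in HF. Of these, oar-miR-127 to miR-369-3p lie in 1 domain of chromosome 18, miR-150-5p and miR-142-5p are markers of white blood cells, and miR-423-5p was the most abundant entry on the lower side. No seed is shared among these 8.
hsa-miR-497-5p: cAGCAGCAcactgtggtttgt
miR-24-3p: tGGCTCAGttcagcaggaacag
miR-101-3p: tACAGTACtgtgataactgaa
miR-361-5p: tTATCAGAatctccaggggtac
oar-miR-127: aTCGGATCcgtctgagcttggct
oar-miR-409-3p: cGAATGTTgctcggtgaacccct
oar-miR-370-3p: gCCTGCTGgggtggaacctggtct
oar-miR-3958-3p: aGATATTGcacggttgatctct
miR-369-3p: aATAATACatggttgatcttt
miR-150-5p: tCTCCCAAcccttgtaccagtg
miR-142-5p: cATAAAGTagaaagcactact
miR-423-5p: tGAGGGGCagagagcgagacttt

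The distinct entries held 4711131 counts in Cont and 6154795 in HF, with 5990078 in HF-R. Counts were therefore scaled to these totals as counts-per-million (CPM), on which 3 counts were worth 0.637 CPM in Cont and 0.487 CPM in HF. For each entry the ratio of CPM in HF to CPM in Cont (HF/Cont) is given with an exact Clopper-Pearson 95% interval, which covers counting error only and not the variation between sheep or preparations. An entry was called higher in HF at a ratio of at least 1.5 with an interval above 1, and lower at the inverse of that ratio with an interval below 1. By this rule 81 of the 356 entries (22.8%) were higher in HF and 28 (7.87%) were lower, 30.6% in all. In bulk tissue, fewer cells of a type and less RNA per cell cannot be told apart.

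The median HF/Cont ratio was 0.16 on the log2 scale, with quartiles at -0.24 and 0.68, and 118 entries were within 1.2-fold of Cont. Only 47 entries reached a ratio of 2 and 14 a ratio of 0.5. The counting interval excluded 1 for 203 entries, and 34 entries passed the fold with an interval that held 1. Calls on both sides were found at all but the highest abundance: 26 higher and 12 lower among 98 entries with a mean of 100 to under 1000 counts, 16 and 2 among 62 entries of 1000 to under 10000, and 5 and 0 among the 32 entries above that.

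The number on each side depended on how the libraries were scaled. With the TMM factors of edgeR 42 entries (11.8%) were higher and 74 (20.8%) lower, and with the size factors of DESeq2 52 (14.6%) were higher and 53 (14.9%) lower. The share of the called entries that were higher thus went from 74.3% to 36.2% and 49.5%. These factors moved every log2 ratio down by the same amount, so that the median of all entries became -0.19 with TMM and -0.06 with DESeq2, while the order of the entries and the differences between them stayed the same. All 28 lower entries and 42 of the 81 higher entries were called under total counts, TMM, DESeq2 and totals without miR-1. The alternatives lowered every ratio, so a lower call could not be lost under them. Because the scaling moves the centre, the families below are also given relative to the median of all entries.

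**Figure D1:**
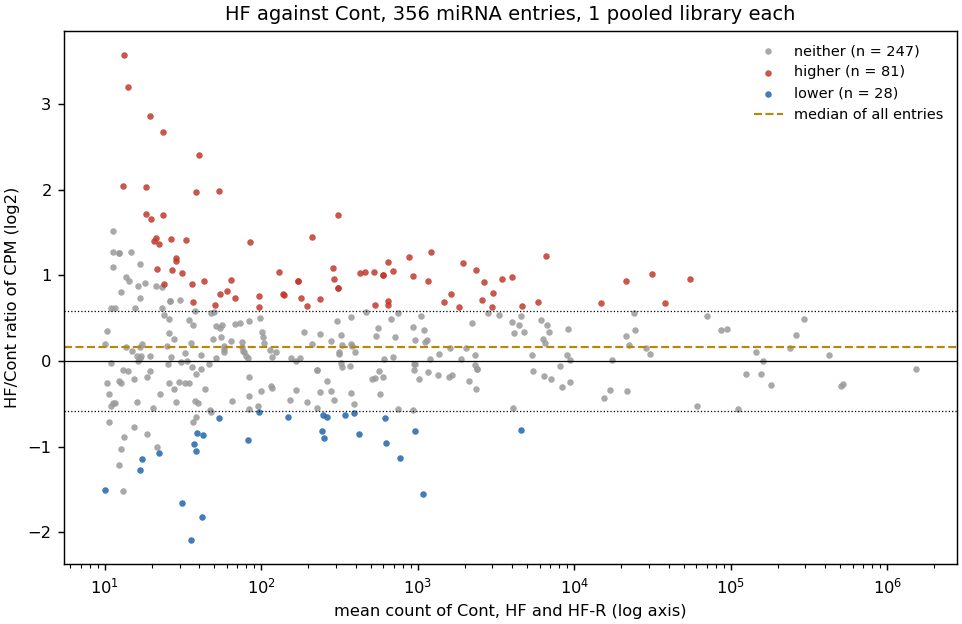
HF/Cont ratio of CPM (log2, vertical axis) against the mean count of the 3 libraries (log axis) for the 356 entries, with 81 higher entries, 28 lower entries and the median of all entries at 0.16 as a dashed line. The spread is widest at low counts, and no entry with a mean of 10000 or more was lower.

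Among entries averaging at least 100 counts, 47 were higher in HF and 14 lower. The highest ratio belonged to miR-4484, a partial entry, with 28.9 CPM in Cont and 93.9 in HF, with 36.2 in HF-R (HF/Cont 3.25, 95% interval 2.69 to 3.95). Next came miR-22-5p, the minor arm of a muscle-rich miRNA, at 21.6 CPM in Cont and 59.1 in HF, with 27.9 in HF-R (2.73, 2.19 to 3.44). The intronic miRNA miR-95-3p followed at 128 CPM in Cont and 311 in HF, with 190 in HF-R (2.42, 2.21 to 2.66). In each of these the HF-R value lay between the other libraries.

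Among entries with more than 1000 counts in every library, the highest ratio was that of miR-101-3p, known for its target EZH2, a histone methyltransferase. It had 791 CPM in Cont and 1848 in HF, with 767 in HF-R (HF/Cont 2.34, 2.25 to 2.43), so the HF library stood apart from both others. The partial entry mmu-miR-3963 had the same order, with 109, 251 and 94.2 CPM (2.31, 2.09 to 2.56), as had miR-452-5p with 90.6, 187 and 84.97 CPM (2.07, 1.85 to 2.31). In contrast, miR-365a-3p was at 42.9 CPM in Cont and 87.6 in HF, with 89.0 in HF-R, so that both later libraries were above Cont (HF/Cont 2.04, 1.73 to 2.41). MiR-194-5p, a miRNA best known from liver and gut epithelium, had 54.8, 113 and 71.8 CPM (2.06, 1.78 to 2.38).

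Called entries with more than 1000 counts in each library also included both arms of miR-140, which is best known from cartilage. MiR-140-5p had 411 CPM in Cont and 798 in HF, with 583 in HF-R (HF/Cont 1.94, 1.84 to 2.05). MiR-140-3p had 366, 598 and 377 CPM (1.63, 1.54 to 1.73). The 2 arms were thus both higher in HF, with ratios that did not overlap in their counting intervals. For oar-miR-374b, from the X chromosome, the levels were 391.6, 677 and 504 CPM (1.73, 1.64 to 1.83), and for miR-490-3p they were 233, 400 and 218 CPM (1.71, 1.596 to 1.842).

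**Figure D2:**
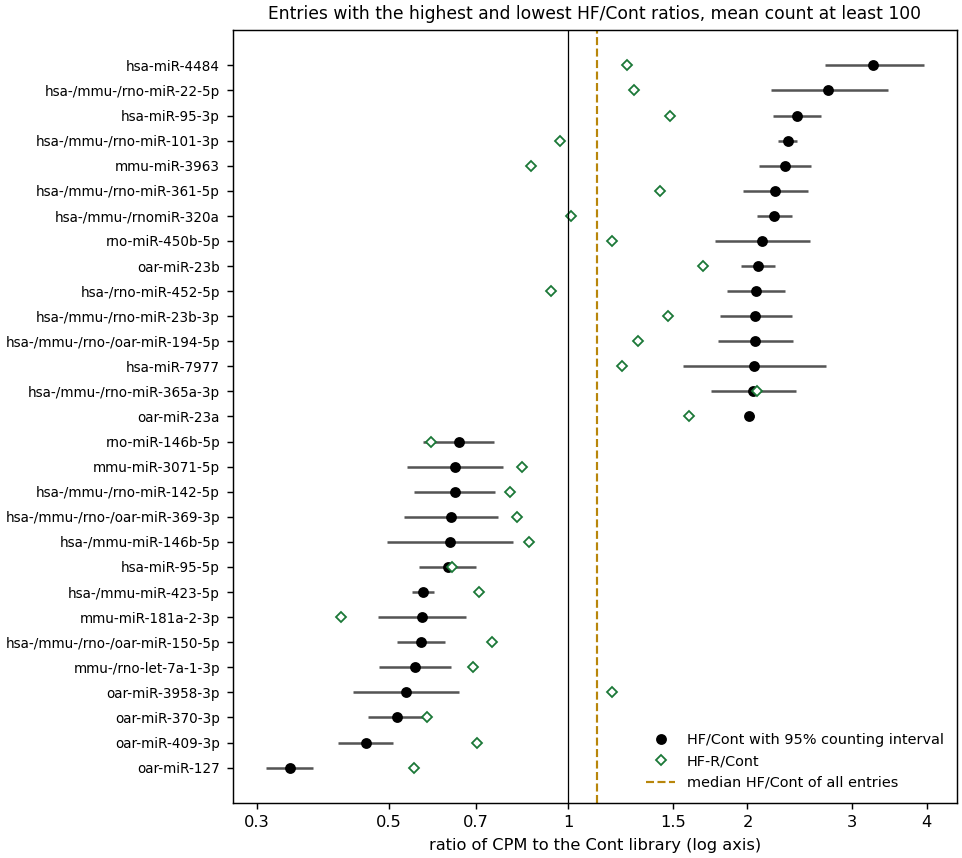
Ratio of CPM to the Cont library (log axis) for the 29 entries with the highest and lowest HF/Cont among those called averaging at least 100 counts. Filled points are HF/Cont with their 95% counting interval, open diamonds are HF-R/Cont, and the dashed line is the median HF/Cont of all entries. HF/Cont ran from 3.25 for miR-4484 to 0.34 for oar-miR-127, and both ratios of an entry share the Cont library.

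The miR-23, miR-27 and miR-24 families are transcribed together in 2 related clusters, miR-23a/27a/24 and miR-23b/27b/24, and are expressed in muscle and vessels. Of their 13 entries, 8 were higher in HF and 0 were lower, against 22.8% and 7.87% of all entries, with a median log2 ratio of 0.69, which was 0.53 above the median of all entries. Oar-miR-23a was the most abundant higher entry of the group at 3531 CPM in Cont and 7115 in HF, with 5634 in HF-R (HF/Cont 2.02, 1.98 to 2.05). Oar-miR-23b had 256, 533 and 432 CPM (2.08, 1.95 to 2.23), and the partial miR-23b-3p entry at the same locus had 59.7, 123 and 87.6 CPM (2.06, 1.80 to 2.37). All 3 entries with the miR-23 seed TCACATT were higher, also with TMM and DESeq2 scaling. However, the whole sequence of oar-miR-23b is the start of that of oar-miR-23a, and miR-23b-3p shares the locus of oar-miR-23b. Reads can thus fall to more than 1 of these entries, and they are not separate evidence.

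MiR-24-3p had 2788 CPM in Cont and 5336 in HF, with 2979 in HF-R (HF/Cont 1.91, 1.88 to 1.95). MiR-27b-3p, a partial entry, had 796, 1287 and 995 CPM (1.62, 1.55 to 1.68). The most abundant of the group, miR-27a-3p, went from 43342 CPM in Cont to 61094 in HF and 49208 in HF-R, and its ratio of 1.41 (1.402 to 1.417) did not reach the fold. In the HF-R library miR-24-3p was thus near the Cont level, whereas oar-miR-23a and oar-miR-23b were nearer to HF. Under TMM 4 of the 13 were higher and 1 lower, and under DESeq2 4 and 0.

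The miR-17-92 cluster and its paralogs, with miR-106a/363 and miR-106b/25, carry miRNAs that promote cell growth and proliferation and include miR-17, miR-20a, miR-93 and miR-106b. Of 15 entries, 8 were higher and 0 lower (22.8% and 7.87% of all entries), with a median log2 ratio of 0.66, 0.49 above that of all entries. All 6 entries with the seed AAAGTGC were higher, but 2 of these, the partial entries of miR-17-5p and miR-106a-5p, had identical counts and are not separate evidence. Under TMM these 2 were the only ones of the 6 that stayed higher, and under DESeq2 4 did. None of the 4 entries described next was higher with TMM scaling.

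MiR-20a-5p had 339 CPM in Cont and 643 in HF, with 395 in HF-R (HF/Cont 1.90, 1.79 to 2.01). MiR-93-5p had 148, 284 and 176 CPM (1.91, 1.75 to 2.09) and oar-miR-17-5p had 215, 345 and 214 CPM (1.61, 1.49 to 1.73). The same order was seen for miR-106b-5p with 81.9, 129 and 69.4 CPM (1.57, 1.39 to 1.78). In all 4, HF was the highest library and HF-R was closer to Cont than to HF. MiR-19b-3p, a member with another seed, had 271, 419 and 276 CPM (1.55, 1.45 to 1.66). The 2 entries of miR-92a-3p, from the same cluster, were at ratios of 0.98 and 0.97. Oar-miR-25, the most abundant entry of the list, was at 1.11, while the partial miR-25-3p entry at its locus was called higher (1.57).

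The miR-29 family, which targets collagens and other matrix proteins, had 6 entries, of which 4 were higher and 0 lower (22.8% and 7.87% of all entries). Its median log2 ratio was 1.13, which was 0.96 above that of all entries. Oar-miR-29b had 486 CPM in Cont and 959 in HF, with 640 in HF-R (HF/Cont 1.97, 1.88 to 2.07). Oar-miR-29a, the most abundant member, had 2131, 3395 and 2301 CPM (1.59, 1.56 to 1.63). Both sheep entries were highest in HF. The partial entries of miR-29a-3p and miR-29c-3p rested on few reads, 6, 50 and 15 counts for miR-29a-3p and 11, 76 and 33 for miR-29c-3p in Cont, HF and HF-R (HF/Cont for miR-29c-3p 5.29, 2.80 to 11.0). The miR-29a-3p entry lies at the locus of oar-miR-29a, where it holds far fewer counts than the perfect entry. Under TMM and DESeq2 3 of the 4 were past the fold, with oar-miR-29a under it.

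The miR-15/16 family inhibits cell cycle progression, and in mice its members are linked to the mitotic arrest of cardiomyocytes after birth. Of 8 entries 5 were higher and 1 was lower (22.8% and 7.87% of all entries), and the median log2 ratio of 0.81 lay 0.64 above that of all entries. Oar-miR-16b, by far the most abundant, had 5265 CPM in Cont and 8435 in HF, with 6289 in HF-R (HF/Cont 1.602, 1.58 to 1.63). MiR-15b-5p had 15, 77 and 22 counts (3.93, 2.24 to 7.36) and miR-15a-5p 17, 50 and 19 counts (2.25, 1.28 to 4.16). Under TMM 3 of the 8 were higher and 2 lower, and under DESeq2 4 and 1.

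The lower entry of the family, hsa-miR-497-5p, has the same AGCAGCA seed. It had 52 counts in Cont and 38 in HF, with 27 in HF-R (HF/Cont 0.56, 0.36 to 0.87). The mouse and rat entry miR-497a-5p, with the same seed but not among the 8, had 78, 129 and 95 counts and a ratio of 1.27 (0.95 to 1.70). The 2 entries lie on the same strand of chromosome 11, at 26393129-26393149 and 26393128-26393149. They are thus end variants of 1 arm, and reads of that arm can fall to either. Their counting intervals did not overlap, so the lower call holds for the human entry and was not shown for the arm as a whole.

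**Figure D3:**
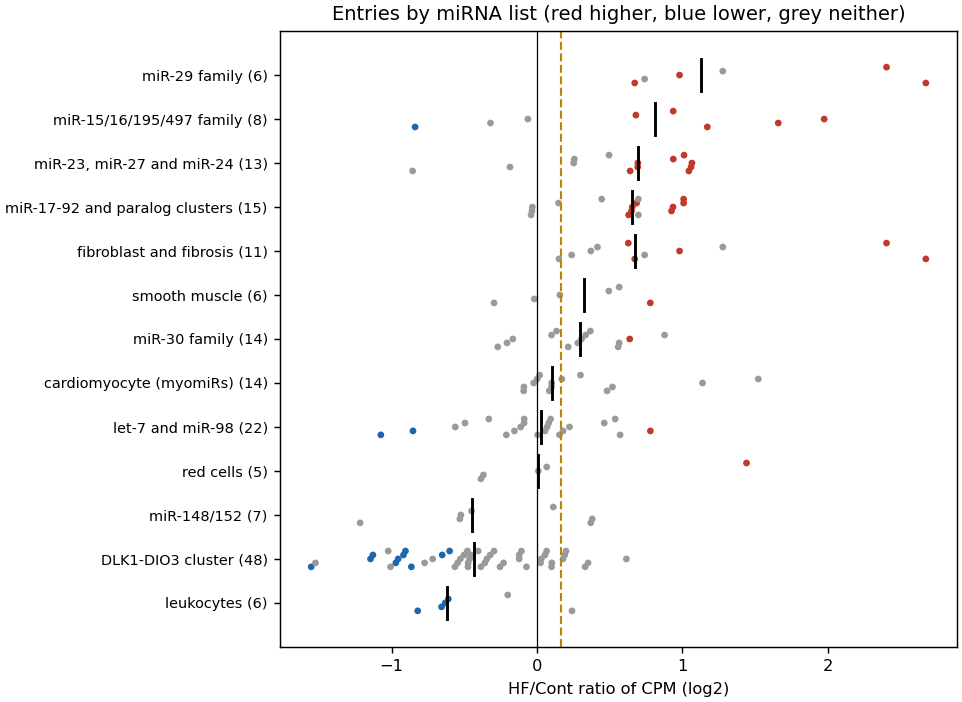
HF/Cont ratio of CPM (log2) of each entry in selected miRNA lists, with the number of entries in brackets, entries called higher in red, lower in blue and neither in grey. The miR-29, miR-15/16, miR-23/27/24 and miR-17-92 lists lay mostly above the median of all entries (0.16) and the DLK1-DIO3 and leukocyte lists mostly below it.

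Genes of 1 genomic cluster could be compared for 11 groups with entries of 3 or more miRNAs on 1 strand at gaps of at most 10 kb, in the coordinates of sheep genome build Oar v4.0 given in the tables. The largest median was that of the X chromosome cluster of miR-424, miR-503, miR-542 and miR-450 at chrX:95213562-95220193, where 6 of 8 entries were higher and 0 lower (22.8% and 7.87% of all entries), with 2 higher under TMM and 5 under DESeq2. Its median was 0.69 above that of all entries on the log2 scale. MiR-424-5p had 26 counts in Cont and 65 in HF, with 38 in HF-R (HF/Cont 1.91, 1.197 to 3.143) and miR-503-5p 8, 33 and 18 (3.16, 1.43 to 7.91). Both are also counted in the miR-15/16 family above.

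In the same X cluster rno-miR-450b-5p had 34.6 CPM in Cont and 73.3 in HF, with 41.1 in HF-R (HF/Cont 2.12, 1.77 to 2.55), whereas miR-450a-5p was almost level at 122, 126 and 120 CPM (1.04, 0.93 to 1.16). These 2 entries both start at 95219858 and end at 95219878 and 95219879. They are thus end variants of 1 arm, and reads of that arm can fall to either. In addition, the 2 entries of miR-542 had identical counts, so they cannot count as separate evidence. On chromosome 2, the cluster of miR-23b, miR-27b and miR-24 at chr2:31170661-31171482 had 7 higher entries of 10, 3 under TMM and 3 under DESeq2, and a median 0.53 above that of all entries. The cluster of miR-106b, miR-93 and miR-25 on chromosome 24 had 3 of 5 higher by total counts, 0 under TMM and 1 under DESeq2 (median 0.49 above). One of the 3 was the partial miR-25-3p entry with 35 counts in Cont and 72 in HF. At its locus oar-miR-25 had 23319 and 33757 counts and was not called (1.11), and the ratio of sums of the cluster was 1.14. The cluster of miR-17 to miR-92a on chromosome 10 had 3 of 7 higher by total counts, 1 under TMM and 1 under DESeq2 (median 0.47 above). In contrast, the let-7 cluster on chromosome 2 had 1 higher and 1 lower entry of 9.

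The DLK1-DIO3 domain is an imprinted region whose large miRNA clusters are expressed from the maternal chromosome. In sheep it holds the callipyge locus of muscular hypertrophy, and miR-127, miR-433 and miR-136 lie antisense to the paternally expressed gene RTL1. Of 67 distinct entries of the domain, 48 reached a mean of 10 counts and 19 did not. Of the 48, 0 were higher in HF and 10 were lower, where 7.87% of all entries were lower. The median log2 ratio was -0.43, which was 0.59 below that of all entries, and 42 of the 48 lay below the median of all entries. Under TMM 26 were lower and under DESeq2 19, with 0 higher under either.

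The lowest ratio of all entries averaging at least 100 counts was that of oar-miR-127, a partial entry, with 318 CPM in Cont and 109 in HF, with 176 in HF-R (HF/Cont 0.34, 0.31 to 0.37). Oar-miR-409-3p, a perfect entry, had 196, 89.5 and 138 CPM (0.46, 0.41 to 0.51). Oar-miR-370-3p, a partial entry, had 165, 84.97 and 95.7 CPM (0.52, 0.46 to 0.58). In these 3 the HF library was the lowest. Oar-miR-3958-3p had 49.9 CPM in Cont and 26.6 in HF, with 59.1 in HF-R (0.53, 0.43 to 0.65), and miR-369-3p had 57.9, 36.9 and 47.6 CPM (0.64, 0.53 to 0.76).

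Lower calls at smaller counts were miR-433-3p with 81, 56 and 109 counts in Cont, HF and HF-R (HF/Cont 0.53), miR-409-5p with 39, 28 and 61 (0.55), miR-485-3p with 45, 30 and 37 (0.51), miR-323a-3p with 22, 13 and 17 (0.45) and oar-miR-323c with 101, 87 and 103 (0.66). Both arms of miR-409 were therefore on the lower side. In all 10 lower entries of the domain HF had the lowest CPM of the 3 libraries.

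The domain was not lower throughout. Its most abundant entries were above a ratio of 1 by total counts but not with TMM scaling, with oar-miR-379-5p at 977 CPM in Cont and 1023 in HF, with 857 in HF-R (HF/Cont 1.05, 1.01 to 1.09) and oar-miR-411a-5p at 673, 846 and 662 CPM (1.26, 1.203 to 1.315). The highest ratio, 1.53 for miR-410-3p, rested on 10 counts in Cont and 20 in HF, and its interval held 1. As a result the summed counts of the larger cluster at chr18:64521291-64563385 gave a ratio of 0.98, although 7 of its 37 entries were lower and none was higher. In the cluster of miR-493, miR-433, miR-127, miR-432 and miR-136 at chr18:64369140-64387050, 2 of 10 entries were lower and the ratio of sums was 0.62, most of which was oar-miR-127.

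Most entries of the domain were known sheep miRNAs, and this class as a whole had lower ratios, with a median log2 ratio of 0.03 over 75 perfect oar entries against 0.32 over 179 perfect hsa-, mmu- and rno- entries. The domain was therefore compared within classes. Oar entries labelled perfect can hold counts of partial matches, as for oar-miR-133, so the oar and other perfect classes may not be counts of the same kind. Among perfect oar entries, the 30 of the domain had 0 higher, 6 lower and a median of -0.43, and the 45 outside it had 11 higher, 1 lower and a median of 0.18. The 3 perfect hsa-, mmu- and rno- entries of the domain had a median of -0.39, against 0.33 over the other 176. None of the 3 was called, all their intervals held 1, and 2 of them are end variants of miR-127-5p, so they say little. Among the 21 entries of the domain averaging at least 100 counts, 5 were lower and the median was -0.34.

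**Figure D4:**
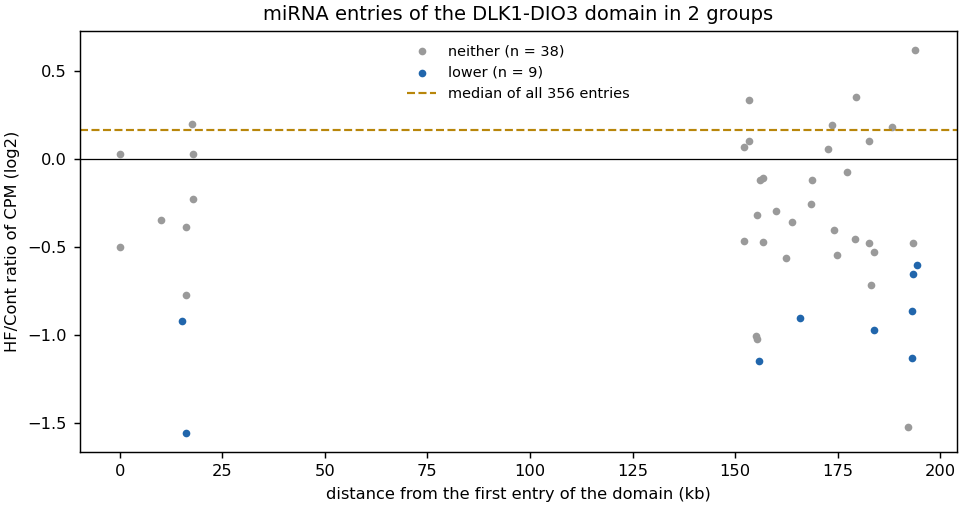
HF/Cont ratio of CPM (log2) of the 47 entries in the miRNA clusters of the DLK1-DIO3 domain on sheep chromosome 18, against the distance along the chromosome from the first of these entries in kb. The 9 lower entries are spread over both clusters and no entry was higher, and the dashed line is the median of all 356 entries at 0.16.

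White blood cell markers were also on the lower side. Of 9 leukocyte entries 3 were under the filter. Of the other 6, 0 were higher and 4 were lower under each of total count, TMM and DESeq2 scaling, where 7.87%, 20.8% and 14.9% of all entries were lower. TMM and DESeq2 lowered every ratio, so a lower call could not be lost under them. MiR-150-5p, a miRNA of mature lymphocytes, had 226 CPM in Cont and 128 in HF, with 168 in HF-R (HF/Cont 0.57, 0.52 to 0.62). MiR-142-5p, which is expressed in all blood cell lineages, had 76.0, 49.1 and 60.8 CPM (0.65, 0.55 to 0.75). The 2 entries of miR-146b-5p, an NF-κB induced miRNA, had ratios of 0.63 (0.50 to 0.81) for human and mouse and 0.66 (0.57 to 0.75) for rat. Both have the same seed, and reads of this arm can fall to either, so they are not separate evidence. The other arm of miR-142, miR-142-3p, was at 111, 96.2 and 80.8 CPM (0.87, 0.77 to 0.98), and miR-155-5p, induced in activated immune cells, was at 151.98, 180 and 178 CPM (1.18, 1.07 to 1.30). The list summed to 693 CPM in Cont and 536 in HF, with 572 in HF-R.

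Red cell markers showed no common direction. Of 5 entries 1 was called, hsa-miR-144-5p, which was higher under every scaling at 11, 39 and 14 counts in Cont, HF and HF-R (HF/Cont 2.71, 1.36 to 5.88). The mouse and rat entry of the same arm, with more reads, had 38, 52 and 33 counts (1.05, 0.68 to 1.64). MiR-451-5p had 139 CPM in Cont and 106 in HF, with 70.3 in HF-R (HF/Cont 0.77, 0.69 to 0.85), and miR-144-3p, from the same erythroid transcript, had 87.5, 67.8 and 49.9 CPM (0.77, 0.67 to 0.89). MiR-486-5p, which is also a muscle miRNA, was at 3236, 3258 and 2771 CPM (1.01, 0.99 to 1.03). Endothelial entries had 0 of 7 called, with oar-miR-10b at 0.85 and oar-miR-221 at 1.34, and smooth muscle entries 1 of 6, rno-miR-145-3p at 18.5, 31.7 and 21.4 CPM (1.72, 1.33 to 2.24). The smooth muscle list does not hold mmu-miR-145a-3p, which overlaps that entry and was also higher, on 9 counts in Cont and 31 in HF (2.64). By total counts 22.8% of all entries were higher and 7.87% lower. Under TMM 2 red cell, 2 endothelial and 1 smooth muscle entries were lower, where 20.8% of all entries were.

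MiR-122-5p, the main miRNA of hepatocytes, had 3 counts in Cont and 36 in HF, with 3 in HF-R (HF/Cont 9.19, 2.90 to 46.6). It made up 5.85 CPM of the HF library. The epithelial oar-miR-200a had 27, 10 and 89 counts (0.28, 0.12 to 0.60) and oar-miR-200b 26, 8 and 72 (0.24, 0.09 to 0.54), both partial entries, which were lowest in HF and highest in HF-R. The third epithelial entry, oar-miR-200c, had 39, 46 and 29 counts (0.90, 0.58 to 1.42) and did not share that order. The skeletal muscle miRNA miR-206 had 24, 42 and 43 counts (1.34, 0.79 to 2.31). These markers of tissues outside the ventricle differed between pools at a level of a few CPM, and their part in the other differences was not tested.

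The tissue label was checked with the myomiRs, whose 14 entries summed to 323617 CPM in Cont and 319780 in HF, with 388549 in HF-R. None of the 14 was called in either direction under total counts, TMM or DESeq2 (22.8% and 7.87% of all entries were higher and lower by total counts), and their median lay 0.06 below that of all entries on the log2 scale. MiR-208a and miR-208b are encoded in introns of the α- and β-myosin heavy chain genes and miR-499 in that of a related myosin. The hsa- and mmu- entry of miR-208a-3p had 22, 27 and 75 counts in Cont, HF and HF-R (HF/Cont 0.94, 0.52 to 1.73), so its highest library was HF-R. MiR-208b-3p, the more abundant form, had 916 CPM in Cont and 1279 in HF, with 1020 in HF-R (1.396, 1.345 to 1.45), so it was highest in HF but under the fold. The list does not hold mmu-miR-1b-5p, which lies opposite miR-1-3p at its locus and was higher under every scaling, at 6789 CPM in Cont and 13195 in HF, with 8400 in HF-R (1.94, 1.92 to 1.97). The arms of miR-499a had ratios of 1.23 (1.22 to 1.24) for the 5p arm and 1.43 (1.23 to 1.67) for the 3p arm. The 5p ratio over the 3p ratio was 0.858, with an interval of 0.737 to 0.9986 that just excluded 1.

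The fibrosis list, apart from miR-29, was near the centre. Oar-miR-21, which is induced in cardiac fibroblasts under stress, had 11297 CPM in Cont and 14602 in HF, with 23307 in HF-R (HF/Cont 1.29, 1.28 to 1.31). MiR-199a-5p had 913, 1218 and 1360 CPM (1.33, 1.29 to 1.39). The entry miR-214-5p of the same transcript had 54, 109 and 127 counts (1.54, 1.11 to 2.18) and was the only higher entry of the list outside miR-29. For these 3 the HF-R library was the highest.

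Among the 10 most abundant entries none was called. Their HF/Cont ratios ran from 0.81 for miR-143-3p to 1.41 for miR-27a-3p, with miR-1-3p at 0.94, oar-miR-30a-5p at 0.83 and miR-26a-5p at 0.82. The let-7 family, the largest seed group, had no call by total counts either. Of 13 entries with the seed GAGGTAG 0 were higher and 0 lower (22.8% and 7.87% of all entries). Their median log2 ratio was 0.07, which was below 0 with TMM and DESeq2. Under TMM 3 of the 13 were lower and under DESeq2 2, close to the 20.8% and 14.9% of all entries. Oar-let-7g had a ratio of 0.68 by total counts. The list of miR-148 and miR-152 had a median 0.61 below that of all entries with 0 of 7 called by total counts. Under TMM 3 of these were lower and under DESeq2 3, beside the same shares of all entries. Its most abundant member, miR-148a-3p, had 12702 CPM in Cont and 8794 in HF, with 11556 in HF-R (HF/Cont 0.69, 0.68 to 0.70). MiR-210-3p, the hypoxia-induced miRNA, rested on 7, 30 and 18 counts (3.28, 1.41 to 8.85).

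MiR-423-5p, which has been studied in human plasma in heart failure, was the most abundant lower entry at 1100 CPM in Cont and 629 in HF, with 778 in HF-R (HF/Cont 0.57, 0.55 to 0.60). The rat entry of the same arm had 196, 132.4 and 178 CPM (0.67, 0.61 to 0.74), just outside the fold. The other arm, miR-423-3p, had 3756, 2976 and 2397 CPM (0.79, 0.78 to 0.81). All were below 1, to differing degrees.

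Both arms of a hairpin come from 1 precursor, and their ratio to each other does not depend on the scaling of the libraries. Entries were paired by hairpin name, however, and an entry can hold reads from more than 1 precursor. This holds for miR-24, which lies in both related clusters described above. In such a pair a difference between the arms can be a difference between precursors. The names let-7a-1-3p, miR-125b-2-3p and miR-181a-2-3p number a precursor, while the 5p entries paired with them carry no such number. Those pairs can be of the same kind, and which others are was not tested. In 84 pairs of entries from 67 hairpin names, the median fold between the HF/Cont ratios of the arms was 1.39. In 18 pairs the arms differed by at least 1.5-fold with an interval that excluded 1. Sheep entries with no arm in their name were not paired. MiR-29a is thus among the 18 by its partial 3p entry (6.38), while oar-miR-29a at that locus had 1.59 against 1.67 for the 5p arm. MiR-125b is among them by a partial 5p entry (2.00), where oar-miR-125b had 1.44. Among 52 pairs of perfect entries, oar entries included, 11 passed this rule, miR-222 among them. Its 5p entry, with 39 and 68 counts, was not listed among perfect reads in the tables of the single libraries. The counts of 18 and 11 pairs both include pairs of miR-24 and let-7a, so they are not counts of differences within 1 precursor.

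For miR-361, a hairpin of perfect entries, the 5p arm went from 338 counts in Cont to 983 in HF while the 3p arm went from 206 to 184. The 5p arm was thus 62.1% of the reads of the hairpin in Cont and 84.2% in HF, and the ratio of the arm ratios was 3.26 (2.56 to 4.14). In HF-R the arms had 614 and 292 counts. For miR-22 the minor 5p arm was higher in HF and the 3p arm was level at 136623 and 177826 counts (HF/Cont 1.00, ratio of arm ratios 2.74, 2.20 to 3.45). MiR-424 had a 5p arm at 1.91 and a 3p arm at 0.96, with 319 and 399 counts (ratio of arm ratios 2.00, 1.22 to 3.36).

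Some arm differences depended on which species' sequence was counted. Reads of the mouse entry miR-24-1-5p numbered 74 in Cont against 85 in HF (0.88), while the human and rat entries of the same arm had ratios of 2.09 and 1.62. Likewise let-7a-1-3p was lower in HF at 488, 353 and 429 counts in Cont, HF and HF-R (0.55, 0.48 to 0.64), while hsa-let-7a-3p had 33, 74 and 56 counts (1.72, 1.12 to 2.67) and let-7a-5p was level at 1.05. These entries differ in length or bases, and reads of 1 arm can fall to either. The let-7a-5p entry can also hold reads of more than 1 precursor.

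**Figure D5:**
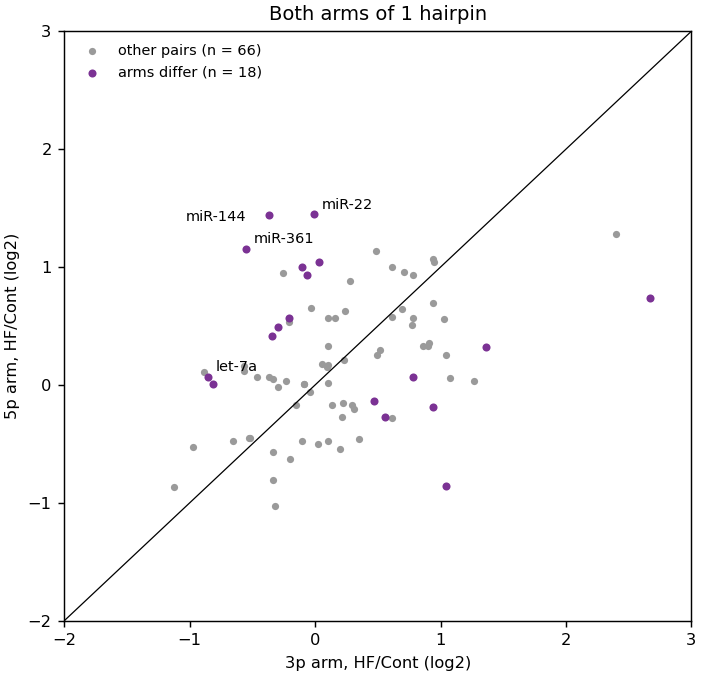
HF/Cont ratio (log2) of the 5p arm against that of the 3p arm for 84 pairs of entries that share a hairpin name. Sheep entries with no arm in their name are not included. The 18 pairs whose arms differed by at least 1.5-fold with an interval excluding 1 are in purple, and miR-361, with 2.23 for the 5p arm and 0.68 for the 3p arm, lies among those farthest from the diagonal.

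The filter on the mean let in entries that were low in 1 library. There were 25 members under 10 counts in Cont and at least 10 in HF, of which 10 were called higher, and 6 under 10 in HF and at least 10 in Cont, of which 2 were called lower. Of the 324 members with at least 10 counts in both, 71 were higher and 26 lower. The highest ratio of all, 11.9 for miR-331-3p, rested on 2, 31 and 7 counts and had an interval from 3.02 to 102. At the limit itself, miR-2355-3p with 13, 6 and 11 counts was just inside, and hsa-miR-320e with 9, 8 and 12 was just outside.

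Several calls share reads or loci. In 14 pairs an entry lies on the opposite strand of another, overlapping it by at least 15 bases. Thus miR-3591-3p, with 4, 38 and 16 counts, is the opposite strand of miR-122-5p, and rno-miR-3556b, with 6, 32 and 17 counts, that of miR-29c-3p. In the lower group mmu-miR-3071-5p (0.65) is the opposite strand of miR-136-3p (0.85). Whether the counting kept the strand was not given in the sources used here, so reads of such partners cannot be told apart.

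In 6 pairs of entries the counts were identical in all 3 libraries although the sequences differed, such as miR-652-3p and miR-652-5p at 111, 277 and 127. For miR-652-5p and miR-542-5p the tables of the single libraries listed at most 1 count of a perfect read in HF. In 12 entries the merged counts differed from those tables. One of these was hsa-miR-95-5p, which is lower at 707 and 580 counts in the merged table (0.63) but has 269 and 320 there, so its call is uncertain.

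A second set of reads came from the single-library tables, which give reads that matched 70 to 99% of a reference apart from the perfect reads. For 164 entries both kinds had at least 10 counts. Of 47 entries higher by perfect reads, 39 were above 1 by the variant reads and 18 passed the same fold. Of 10 lower by perfect reads, 7 were below 1 and 2 passed. Of the 107 called neither, 55 were above 1. Both kinds of read come from the same libraries, so they bear on the counting and not on the sheep.

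The variant reads had ratios of 1.97 for miR-101-3p, 1.5997 for miR-24-3p, 2.01 for miR-20a-5p, 1.70 for miR-361-5p and 1.90 for miR-365a-3p. On the lower side they had 0.51 for miR-423-5p and 0.44 for miR-142-5p. They disagreed with the perfect reads for miR-22-5p at 0.98 and for let-7a-1-3p at 1.07, each then on the other side of 1. For miR-146b-5p the variant reads were level at 1.00. Where an oar entry and another entry shared a locus, 13 of 16 pairs were on the same side of 1, and the exceptions were miR-30d, let-7d and let-7g.

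The ratio had weak correlations with the base composition and length of the entries. Across the 356 entries the correlation of the log2 HF/Cont ratio with GC content was -0.02 (Pearson) and -0.07 (Spearman), with T content -0.12 and -0.09, and with length -0.07 and -0.04. Among the 192 entries averaging at least 100 counts, Pearson's r was -0.17 with length and -0.17 with T content. Entries are not independent replicates, and families share both sequence and library.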

How the data were processed

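Total RNA of left ventricular tissue was pooled per group, made into small RNA libraries with a NEBNext kit and sequenced on a NextSeq 500. The authors kept reads of 15 to 30 nt, aligned them to miRBase with BLAST and mapped them to sheep genome Oar v4.0 with Bowtie (versions not given in the sources used here), and deposited counts: 2 merged tables with 1 count per miRNA entry and library, and 6 tables of perfect and partial matches per library. Columns of other samples numbered 0. A blank cell was taken as no value. The deposited counts of most known oar-miRNAs are not those the study tabulated, and the latter were not used here. For oar-miR-133 the deposited counts average to the study's count of partial matches.

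Ratios used library totals over distinct entries, with Clopper-Pearson intervals (Python 3.11.15, scipy 1.17.1, pandas 2.3.3), tested on simulated data. With 1 library per group no count model was fitted, and edgeR 4.0.16 and DESeq2 1.42.0 (R 4.3.3) gave scaling factors only. Named entries were the 15 highest and up to 15 lowest called ones with a mean of at least 100 counts, the 10 most abundant, list members and arm pairs. Entries outside this rule were chosen after their values were seen. The members, lists and alternatives were chosen with earlier results of these data known. Sequences came from the merged tables.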

Additional observations from a re-analysis of the deposited data

How the results depend on the processing

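No paired analysis was possible because each group was 1 pooled library; for the same reason no library could be left out. The number of entries higher in HF (81) was 42 with TMM, 52 with DESeq2 size factors, 160 with raw counts, 47 at a mean of at least 100, 49 from the perfect match tables and 40 at a fold of 2. The number lower (28) was 74, 53, 6, 14, 10 and 10 under these in the same order, and 53 at a fold of 1.2. The median log2 ratio (0.16) turned to -0.19 with TMM and -0.061 with DESeq2, and was 0.55 with raw counts and 0.29 from the perfect match tables. In 3 alternatives chosen after seeing the data, variant reads gave 28 higher and 12 lower of 164 entries, perfect hsa-, mmu- and rno- entries alone gave 51 and 10 with a median of 0.32, and leaving out the 12 entries unlike the library tables gave 79 and 27. The scaling alternatives differ from the main one by a single factor for all entries. Of the 29 entries named by their ratio, 29 stayed on the same side of 1 under TMM, DESeq2, totals without miR-1 and raw counts. By variant reads 11 of 13 did, and miR-22-5p (0.983) and let-7a-1-3p (1.07) did not. The median of 9 of 33 lists changed sign with TMM, 7 with DESeq2, 3 without miR-1 and 2 with raw counts. Entries near 10 counts have intervals wider than 1.5-fold on each side.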
